A study of Mus musculus with 28 samples.

Results

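The serotonin receptor genes *Htr1a*, *Htr1b*, *Htr1f*, *Htr2a*, *Htr2c*, *Htr3a*, *Htr4*, *Htr5a* and *Htr7* were examined in the amygdala of mice that drank water or alcohol. They were chosen by gene symbol, and they are 9 of the 51647 genes listed in either count table. Levels and group differences of 8 of them were measured across both batches of mice, and *Htr4* was read from the table of the second batch alone. The other mouse serotonin receptor genes, *Htr1d*, *Htr2b*, *Htr3b*, *Htr5b* and *Htr6*, are given beside them for comparison. No receptor passed the test of a difference between the drinking groups, and several of them varied from mouse to mouse together with marker lists of cell types and brain regions.

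RNA sequencing was carried out on 28 adult female C57BL/6J mice (written C57BL6/J in the labels), which were 7 weeks old on arrival and housed individually during drinking. The Water Drinking group (10 mice) had no access to alcohol, the Acute Drinking group (9 mice) had a single access to 20% alcohol on the last day of a 28-day period, and the Chronic Drinking group (9 mice) had access every other day across that period. Tissue was taken on day 29 as bilateral micropunches aimed at the whole amygdala, both its basolateral and its central part, and RNA was pooled over all cells of the punch. The mice came in 2 batches, with 4 Water, 4 Acute and 3 Chronic mice in the first and 6, 5 and 6 in the second. Total counts per mouse lay between 20004380 and 22569562. Batch was a large difference, with 46.2% of 16266 tested genes past the threshold between batches, so it was a term in the tests over all 28 mice (the ComBat-seq route adjusted the counts for it instead).

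Serotonin reaches the amygdala along axons of raphe neurons and acts there on receptors of several families. Receptors of the Htr1 and Htr5 families couple to inhibitory G proteins that lower cyclic AMP, those of the Htr2 family couple to Gq proteins and phospholipase C, and *Htr4*, *Htr6* and *Htr7* couple to Gs proteins that raise cyclic AMP. Htr3 genes encode a cation channel that serotonin opens directly. In the amygdala these receptors sit on principal neurons, on interneurons and on incoming axons, and they are studied for their part in fear, anxiety and alcohol drinking.

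The punches carried the markers of the tissue on their labels. *Slc17a7*, the vesicular glutamate transporter of cortical and basolateral amygdala neurons, ranged from 792 to 1573 CPM (counts scaled to a common library size) over the 28 mice, and the central amygdala marker *Prkcd* ranged from 22.7 to 49.8 CPM. Transcripts of the choroid plexus and striatum lists were also present and uneven. The choroid plexus transcript *Ttr* ranged from 0.258 to 3903 CPM, and *Drd2*, a dopamine receptor of striatal neurons, ranged from 10.4 to 82.4 CPM. Some central amygdala neurons also express genes of the striatum list, so these transcripts were not assigned to a region. By contrast, the defining raphe transcripts *Slc6a4* (the serotonin transporter) and *Fev* (a transcription factor of serotonin neurons) did not exceed 0.258 and 0.139 CPM in any mouse. Of the other genes of that list of 4, *Tph2* did not exceed 0.533 CPM, and the transporter gene *Slc22a3*, which is not limited to raphe neurons, ranged from 1.19 to 3.59 CPM.

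The levels of the receptors in untreated amygdala were compared first, per kilobase of merged exons because the genes differ in length. *Htr2c* was the most abundant receptor transcript at 16.3 ± 2.41 CPM per kilobase (SD, n = 10 Water mice), and *Htr1b*, a receptor known on axon terminals, followed at 7.64 ± 1.27. *Htr2c* exceeded *Htr1b* in 10 of 10 mice without overlap (exact sign-flip permutation test, two-sided p = 0.00195, adjusted p = 0.00586 over 12 neighbouring pairs), and *Htr1b* exceeded *Htr2a* in 10 of 10 mice with the same p values. This p of 0.00195 is the smallest that 10 mice allow.

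A group of middle levels came next. *Htr2a* stood at 4.29 ± 1.08, *Htr5a* at 4.25 ± 0.460, *Htr3a* at 3.91 ± 0.801 and *Htr7* at 3.14 ± 0.596 CPM per kilobase. Neighbours in this group did not differ past the threshold, with exact permutation p = 0.887 for *Htr2a* against *Htr5a*, 0.123 for *Htr5a* against *Htr3a* and 0.0449 for *Htr3a* against *Htr7*, the last adjusted to 0.0770. *Htr7* exceeded *Htr1a* (2.50 ± 0.293) in 8 of 10 mice (exact permutation p = 0.0215, adjusted p = 0.0430).

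*Htr1a*, *Htr6* (2.24 ± 0.491), *Htr1f* (2.23 ± 0.438) and *Htr1d* (2.17 ± 0.724 CPM per kilobase) formed the lower end, and no neighbours among them differed past the threshold (adjusted p of 0.114 or more). *Htr4* stood at 1.40 ± 0.241 in the 6 Water mice of the second batch, below *Htr1d* in 6 of 6 mice. Their ranges overlapped, and the difference did not pass (exact permutation p = 0.03125, adjusted p = 0.08125). *Htr5b* was at 0.474 ± 0.231, and *Htr2b* and *Htr3b* were nearly undetected, with at most 4 and 2 counts in any of the 28 mice. *Htr2b* shares exon sequence with *Psmd1* on the opposite strand, so even its few counts are uncertain.

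Among the 16266 tested genes, the Water mean of *Htr2c* was higher than that of 82.8%, that of *Htr1b* higher than 65.9%, and that of *Htr1f*, the lowest of the 8, higher than 36.6%. *Htr2c* made up 36.8% of the summed level of the 8 receptors. This share depended on how its length was counted, since its merged exons span 9328 bases and its longest transcript 4883, and it came to 52.5% with the longest transcript of each gene. In mice of the first batch its share was 40.2%, in those of the second 34.6%.

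**Figure D1:**
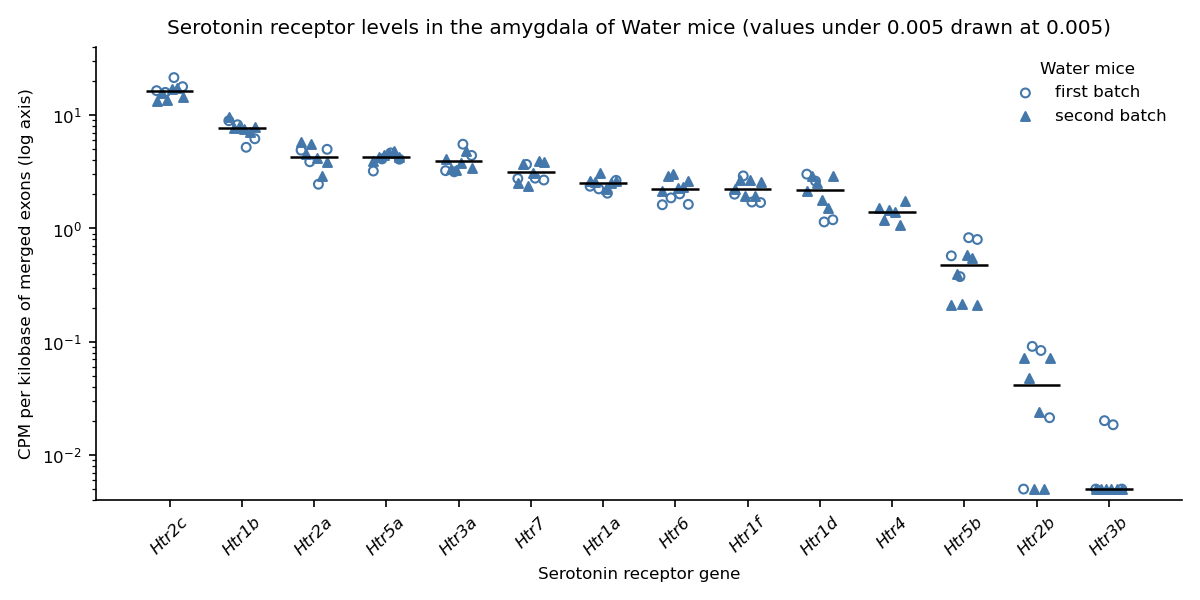
Levels of 14 serotonin receptor genes in Water mice, in CPM per kilobase of merged exons on a log axis. Each symbol is a mouse, open for the first and filled for the second batch, and the line is the mean. *Htr2c* lies above every other gene in all 10 mice, while the levels from *Htr2a* to *Htr7* overlap.

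Receptors differed in how much they varied between mice of the same group and batch. *Htr2a* was the most variable of the 8, with an SD of 0.34 on the log2 scale, and *Htr3a* followed at 0.30. *Htr5a* was the steadiest at 0.14, which equals the median of all tested genes (0.14), and the other 5 lay between 0.16 and 0.24. Between batches, *Htr2c* was lower in the second batch (log2 difference -0.18, edgeR adjusted p = 0.00864) and *Htr5a* was higher (0.13, adjusted p = 0.0293), beside 46.2% of all tested genes past this threshold.

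The main question was whether a single drinking session or repeated drinking was followed by another level of any receptor. In the comparison of Acute with Water mice, 0 of the 8 receptors passed edgeR's quasi-likelihood test at an adjusted p of 0.05, beside 0.0% of the 16266 genes. In Chronic against Water mice it was 0 of 8 beside 0.0184%, in Chronic against Acute mice 0 of 8 beside 0.0%, and across the 3 groups 0 of 8 beside 0.0184%. At an unadjusted p under 0.05 the counts were 1, 3 and 1 of 8, beside 9.52%, 10.5% and 4.44% of all genes. In the same order of comparisons, DESeq2 with batch as a term called 0 receptors in each beside 0.0553%, 0.234% and 0.0% of all genes, ComBat-seq followed by DESeq2 called 0 beside 0.184%, 0.54% and 0.0%, and limma-voom called 0 beside 0.0184%, 0.0184% and 0.00615%. Both DESeq2 routes gave no adjusted p for 4 of the 8 receptors (*Htr1a*, *Htr1f*, *Htr3a* and *Htr7*) between Chronic and Water mice, and DESeq2 with batch gave none for the same 4 between Acute and Water mice, so these could not be called there. The median log2 fold change of the 8 was 0.00 in Acute and 0.03 in Chronic mice against Water, where the medians of all genes were 0.00 and 0.00. Both comparisons use the same Water mice and are therefore not independent.

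**Figure D2:**
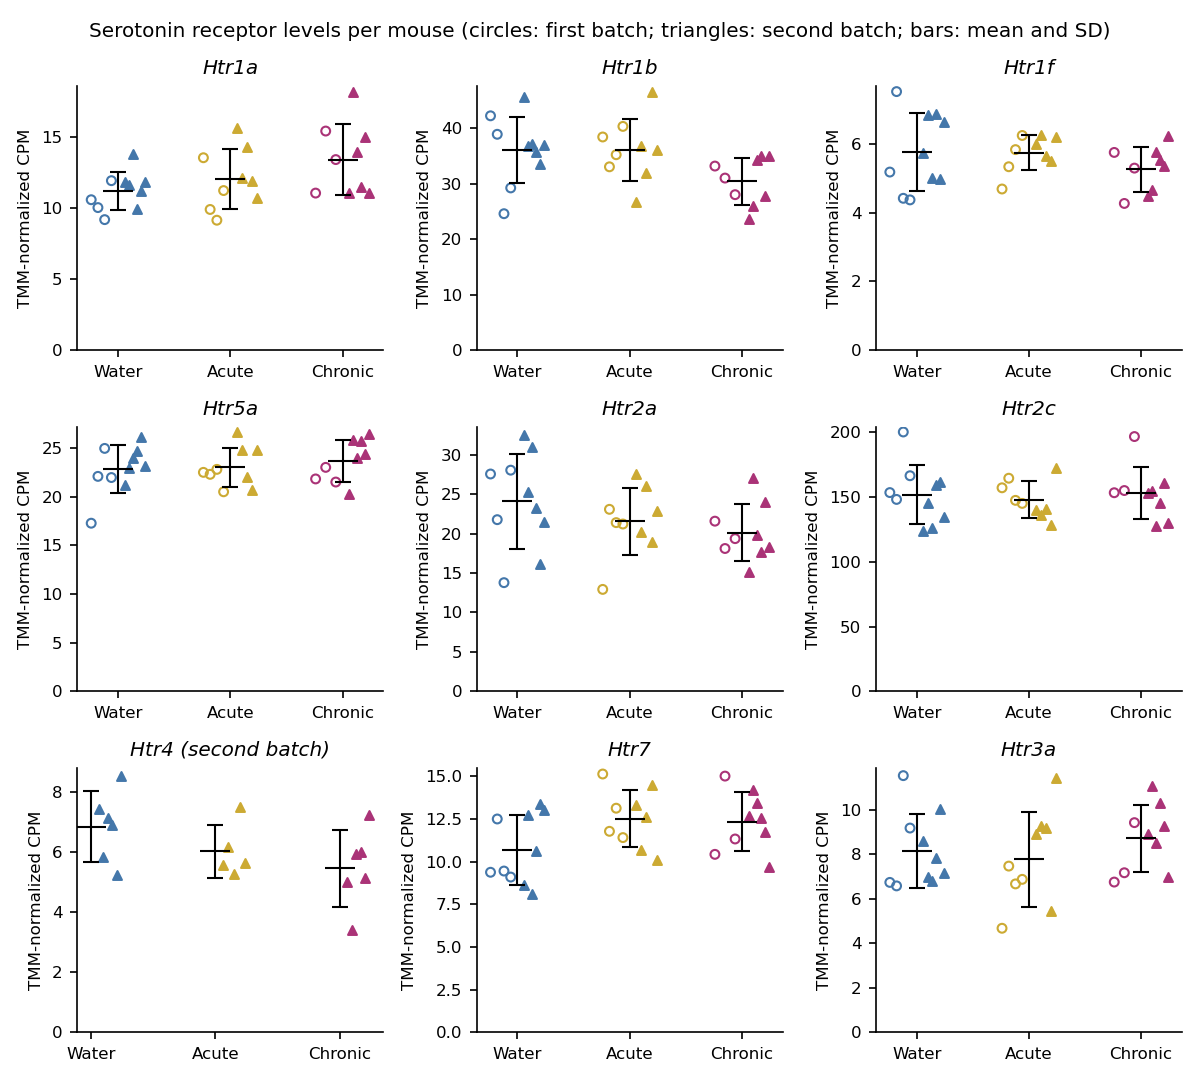
Levels of the 9 receptors in each mouse, in CPM normalized by the trimmed mean of M values (TMM), by drinking group. Circles are mice of the first batch, triangles those of the second, and bars give the mean and SD. The groups overlap in every panel.

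Among the Gi-coupled receptors, *Htr1b* had the most negative log2 difference between Chronic and Water mice. Its gene lies on chromosome 9 (chr9:81628291-81633828, minus strand, GRCm38) and its messenger RNA has 4724 exonic bases. Water mice ranged from 24.6 to 45.6 CPM (median 36.9), Acute mice from 26.8 to 46.5 (median 36.1) and Chronic mice from 23.7 to 35.0 (median 31.0). The Chronic range lay almost within the Water range, but after removal of batch means 9 of 9 Chronic mice were below the Water mean.

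The log2 difference of *Htr1b* between Chronic and Water mice was -0.25 ± 0.10 (SE; 95% interval -0.45 to -0.04), with p = 0.0188 and an adjusted p of 0.362 by edgeR. An exact permutation test within batches gave a two-sided p of 0.0399. Within batches it was -0.13 (first) and -0.31 (second). Between Chronic and Acute mice it was -0.25 ± 0.10 (edgeR p = 0.0198, adjusted p = 0.998), while Acute and Water mice were 0.00 apart (interval -0.20 to 0.21). Exons of the antisense gene *D430036J16Rik*, with a mean of 125 counts, overlap those of *Htr1b*, and because the strand setting of the counting is not given in the sources used here, the counts of the pair may be partly exchanged.

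*Htr1a*, the inhibitory autoreceptor of raphe neurons that is also found on principal neurons of the forebrain, differed in the other direction. Water mice ranged from 9.18 to 13.8 CPM (median 11.4), Acute mice from 9.14 to 15.6 (median 11.9) and Chronic mice from 11.02 to 18.1 (median 13.4). After removal of batch means 7 of 9 Chronic mice were above the Water mean, and the ranges overlapped. The log2 difference between Chronic and Water mice was 0.25 ± 0.10 (interval 0.05 to 0.45), with edgeR p = 0.0141, an adjusted p of 0.341 and an exact permutation p of 0.0292. Within batches it was 0.35 and 0.20.

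*Htr1f* and *Htr5a* completed the Gi-coupled members. *Htr1f* ranged from 4.37 to 7.51 CPM in Water (median 5.45), from 4.68 to 6.26 in Acute (median 5.83) and from 4.26 to 6.23 in Chronic mice (median 5.35). Its log2 differences were 0.00 for Acute and -0.13 for Chronic against Water (edgeR adjusted p = 0.994 and 0.650), the latter -0.07 without Water mouse 41 of the first batch. *Htr5a* ranged from 17.3 to 26.1 CPM in Water (median 23.1), from 20.5 to 26.7 in Acute (median 22.5) and from 20.3 to 26.5 in Chronic mice (median 24.0). The intervals of its log2 differences from Water, -0.10 to 0.13 for Acute and -0.07 to 0.16 for Chronic mice, were the narrowest of the 9, and the groups were close to superimposed.

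Of the Gq-coupled receptors, *Htr2a* had the widest spread. Water mice ranged from 13.8 to 32.5 CPM (median 24.3), Acute mice from 12.9 to 27.5 (median 21.4) and Chronic mice from 15.1 to 27.0 (median 19.3). Chronic mice thus had the lowest median within overlapping ranges. The log2 difference from Water was -0.27 ± 0.14 in Chronic (edgeR p = 0.0582, adjusted p = 0.495) and -0.15 ± 0.13 in Acute mice (p = 0.260). The Acute value ran from -0.22 to -0.03 over 14 fits with another method, scaling, filter, covariate or batch. It ran from -0.22 to -0.09 without a mouse. Within batches the Chronic difference was -0.21 in the first and -0.30 in the second.

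*Htr2c*, the most abundant receptor, had similar levels in the 3 groups. Water mice ranged from 123.5 to 200.4 CPM (median 150.9), Acute mice from 128.3 to 172.2 (median 145.2) and Chronic mice from 127.8 to 196.8 (median 153.5). Its log2 difference from Water was -0.04 in Acute (interval -0.18 to 0.09) and 0.02 in Chronic mice (interval -0.12 to 0.16). The ranges of the 3 groups overlapped over most of their width.

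*Htr7* and *Htr4* couple to Gs. *Htr7* ranged from 8.10 to 13.4 CPM in Water (median 10.02), from 10.1 to 15.1 in Acute (median 12.6) and from 9.68 to 15.01 in Chronic mice (median 12.6). After removal of batch means 8 of 9 Acute and 8 of 9 Chronic mice were above the Water mean, with overlapping ranges. The log2 difference from Water was 0.23 ± 0.10 in Acute (interval 0.03 to 0.44, edgeR p = 0.0289, adjusted p = 0.493, exact permutation p = 0.0505) and 0.21 ± 0.10 in Chronic mice (interval 0.00 to 0.41, edgeR p = 0.0499, adjusted p = 0.477, exact permutation p = 0.0825). In the first batch these differences were 0.35 and 0.28, and in the second 0.15 and 0.16. Acute and Chronic mice were 0.03 apart on the log2 scale, within an interval of -0.24 to 0.19 for Chronic minus Acute.

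*Htr4*, on chromosome 18, was compared in the 17 mice of the second batch. Water mice ranged from 5.23 to 8.55 CPM (median 7.04) and Chronic mice from 3.41 to 7.23 (median 5.56). The 5 Acute mice had 5.29, 5.57, 5.66, 6.17 and 7.51 CPM. Chronic mice included the lowest value but overlapped with both other groups. The log2 difference from Water was -0.33 ± 0.15 in Chronic (interval -0.64 to -0.02, edgeR p = 0.0399, adjusted p = 0.344, exact permutation p = 0.0844) and -0.18 ± 0.16 in Acute mice (p = 0.255). Of the 16435 genes tested in these mice, 13.5% had such an unadjusted p in the Chronic comparison and 0.0243% passed after adjustment. The Acute value of *Htr4* was -0.095 with a replicate block and ran from -0.27 to -0.11 without a mouse.

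*Htr3a*, the channel subunit found mainly in a class of interneurons, had Acute differences of opposite sign in the batches. Its level ranged from 6.59 to 11.5 CPM in Water (median 7.49), from 4.68 to 11.4 in Acute (median 7.48) and from 6.76 to 11.1 in Chronic mice (median 8.91). The widest range was that of the Acute mice. Over both batches the log2 difference from Water was -0.08 ± 0.13 in Acute and 0.08 ± 0.13 in Chronic mice (edgeR adjusted p = 0.892 and 0.886). Chronic minus Water was -0.13 in the first batch, opposite in sign to the value over both batches. Acute minus Water gave -0.41 for the first and 0.17 for the second batch, and the difference of these values, 0.57 ± 0.26, had an edgeR p of 0.0354 and an adjusted p of 0.999. Of the 24 such batch differences of the 8 receptors, 1 had an unadjusted p under 0.05 and 0 passed after adjustment. The share of all genes is not given for these differences, so the count is a description only.

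**Figure D3:**
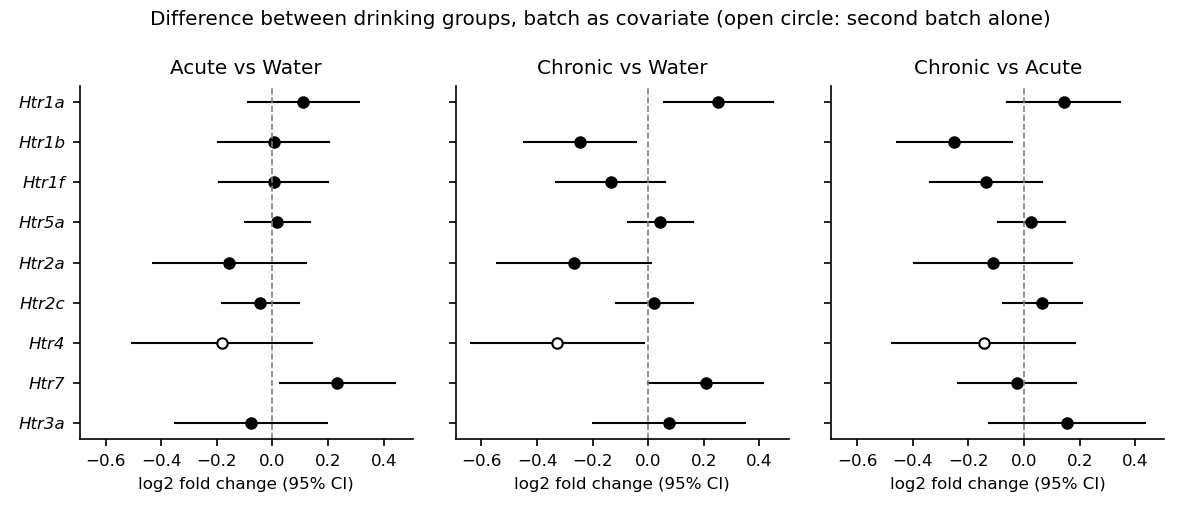
Log2 fold changes of the 9 receptors in the 3 comparisons, with 95% confidence intervals from edgeR. Filled circles use 28 mice with batch as a term, and the open circle is *Htr4* in the second batch. All points lie between -0.33 and 0.25, and the few intervals that exclude 0 belong to *Htr1a*, *Htr1b*, *Htr4* and *Htr7*.

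Of the 5 other receptor genes, 3 passed the count filter (*Htr1d*, *Htr5b* and *Htr6*), and 0 passed the adjusted threshold in any comparison. *Htr5b* had the largest difference of any receptor, 0.63 ± 0.23 between Chronic and Acute mice (edgeR p = 0.0115, adjusted p = 0.998), on only 6 to 42 counts per mouse, and it was 0.85 lower on the log2 scale in the second batch. *Htr1d* had a log2 difference of -0.37 ± 0.18 between Chronic and Acute mice (edgeR p = 0.0518, adjusted p = 0.998). This difference was -0.01 in mice of the first batch and -0.60 in those of the second, and -0.12 with the mean level of striatum markers as a covariate.

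The rest of the serotonin system was read from lists of related genes. In the list for synthesis, transport and breakdown, 10 of 14 genes were tested over both batches and 0 passed the adjusted threshold in any comparison. At an unadjusted p under 0.05 there were 2 higher and 0 lower in Acute mice against Water, beside 5.07% and 4.45% of all genes, 1 higher and 1 lower in Chronic mice, beside 4.81% and 5.65%, and 0 between Chronic and Acute mice. The tryptophan hydroxylases, which start serotonin synthesis in raphe cell bodies, had at most 15 (*Tph1*) and 11 (*Tph2*) counts per mouse, and *Slc6a4* had at most 5. *Ddc*, the decarboxylase that completes synthesis, had 184 to 552 counts and a log2 difference of 0.31 ± 0.12 between Acute and Water mice (edgeR p = 0.0154, adjusted p = 0.462). The monoamine oxidases *Maoa* and *Maob*, which break serotonin down, differed from Water by 0.05 and -0.03 in Acute and by 0.02 and -0.06 in Chronic mice. The smallest p of the list in Chronic mice belonged to *Spr* (0.09 ± 0.04, edgeR p = 0.0201, adjusted p = 0.370) and to the transporter gene *Slc22a3* (-0.40 ± 0.17, edgeR p = 0.0287, adjusted p = 0.412), which are named here after their values were seen. *Slc18a2*, the vesicular monoamine transporter, was read in the second batch alone, with 115 to 186 counts and a log2 difference of -0.17 ± 0.10 between Chronic and Water mice (edgeR adjusted p = 0.504).

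Downstream of the receptors, 23 of 25 genes for G proteins and effectors and 20 of 21 genes for receptor partners were tested, and 0 of either list passed the adjusted threshold in any comparison. At an unadjusted p under 0.05, the first list had 3 genes higher and 0 lower in Acute mice against Water, and 4 higher and 1 lower in Chronic mice, beside the same shares of all genes. *Gnai2*, an inhibitory G protein subunit, had the smallest p of the list in Chronic mice (log2 difference 0.09 ± 0.03, edgeR p = 0.00798, adjusted p = 0.290), followed by the calcium channel gene *Itpr1* (-0.24 ± 0.10, p = 0.0282). In Acute mice these were the adenylyl cyclase gene *Adcy2* (0.10) and *Gnas* (0.08), and between Chronic and Acute mice the phospholipase genes *Plcb1* (-0.10) and *Plcb4* (-0.14).

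Among receptor partners the receptor kinase gene *Grk6* had the smallest p in both comparisons with Water (0.08 ± 0.03 in Acute, edgeR adjusted p = 0.452, and 0.07 ± 0.03 in Chronic mice, adjusted p = 0.421). The next were *Mpdz*, a scaffold that binds *Htr2c* (-0.12 in Acute mice), and *Deaf1* (0.10 in Chronic mice), a transcription factor known to act on *Htr1a*. Between Chronic and Acute mice they were *Rgs4*, which shortens G protein signals (-0.21 ± 0.07, edgeR p = 0.00835, adjusted p = 0.998), and *Cc2d1a* (0.07), a further regulator of *Htr1a*. Medians of all lists of related genes lay between -0.02 and 0.03 on the log2 scale.

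The levels of the receptors were then set against marker scores of cell types and brain regions, each the mean log2 CPM of a short marker list with batch means removed. In bulk tissue, fewer cells of a type and less RNA per cell cannot be told apart, and the part that the position of the punch had in these scores was not tested. Of 96 relations between 8 receptors and 12 lists, 20 had an adjusted permutation p under 0.05 with Pearson's r over 28 mice, 5 of them with the striatum list. The count was 3 in the first batch alone, 11 in the second alone and 8 without the 2 mice farthest from the median score. A size of r of 0.5 or more was found for 18 of the 96 relations, beside 7.0% of all relations between a tested gene and one of the lists, and for 5 of the 8 receptors with the striatum list, beside 1791 of 16259 genes. These shares are a description without a test. All values of a mouse come from the same library, so receptors and markers share its normalization.

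*Htr1b* followed the striatum list (r = 0.83, Spearman's rho = 0.82, permutation p = 1e-05 for each, the smallest that 100000 resamples can give, adjusted p = 0.000960). The relation held at r = 0.87 and 0.82 within the batches, at 0.82 without the 2 mice farthest from the median score, and at 0.81 with group means removed as well. *Htr1f*, of the same family, showed a weaker relation (r = 0.53, rho = 0.46), with an adjusted permutation p of 0.0437 by r and 0.0703 by rho. *Htr4* had r = 0.75 with the same list and -0.82 with the thalamus and habenula list over the 17 mice of the second batch, given here without a test.

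*Htr2c*, *Htr3a* and *Htr5a* went the opposite way with the striatum list. For *Htr2c* r was -0.72 and rho -0.77 (permutation p = 6e-05, adjusted p = 0.00144), with -0.71 and -0.73 in the batches. For *Htr3a* r was -0.71 and rho -0.73 (permutation p = 5e-05, adjusted p = 0.00144), with -0.74 and -0.67 in the batches. For *Htr5a* r was -0.52 and rho -0.56 (permutation p = 0.00569, adjusted p = 0.0420). The relations of *Htr2c* and *Htr3a* were -0.70 and -0.62 without the 2 farthest mice.

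*Htr2c* also followed the choroid plexus list, a tissue known for dense *Htr2c* expression, with r = 0.68 and rho = 0.70 (adjusted permutation p = 0.00192). This held at 0.65 and 0.74 within the batches and at 0.64 without the 2 farthest mice. *Htr3a* also had a relation with this list (r = 0.46, rho = 0.51, adjusted permutation p = 0.0475), with 0.28 and 0.58 in the batches. The summed level of the 8 markers of that list ranged from 32.7 to 4133 CPM in Water, from 31.0 to 3697 in Acute and from 25.2 to 4428 CPM in Chronic mice. All 3 groups thus held mice with nearly none of these markers and mice with much of them.

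**Figure D4:**
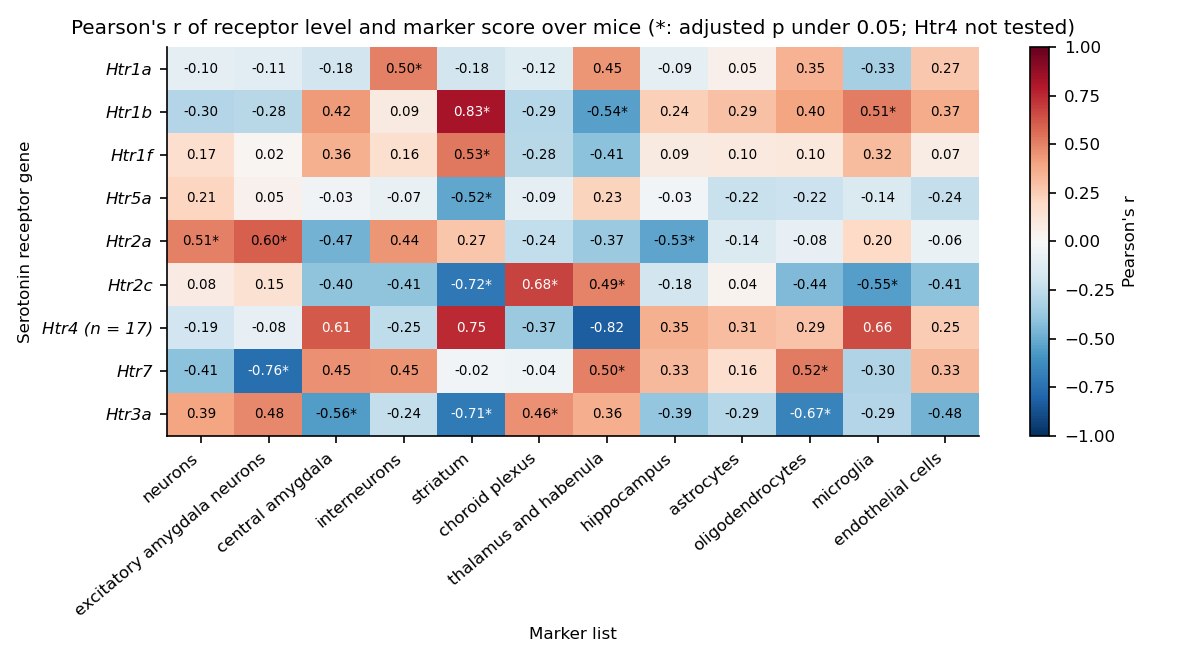
Pearson's r between receptor level and marker score over mice, with batch means removed, for 9 receptors (28 mice, and 17 for *Htr4*) and 12 marker lists. Asterisks mark an adjusted permutation p under 0.05, and the values for *Htr4* were not tested. *Htr1b* and *Htr4* are positive and *Htr2c* and *Htr3a* negative in the striatum column.

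*Htr7* and *Htr2a* were related to the list of excitatory amygdala neurons in opposite directions. *Htr7* was lower where that score was higher (r = -0.76, rho = -0.75, permutation p = 2e-05, adjusted p = 0.000960), with -0.83 and -0.71 in the batches and -0.72 without the 2 farthest mice. *Htr2a* was higher with it (r = 0.60, rho = 0.51, adjusted permutation p = 0.0147), with 0.65 and 0.56 in the batches and 0.50 without the 2 farthest mice. *Htr3a* was lower where oligodendrocyte markers were higher (r = -0.67, rho = -0.61, adjusted permutation p = 0.00464), while *Htr7* was higher with them (r = 0.52, rho = 0.53, adjusted permutation p = 0.0420). The relation of *Htr7* was uneven, with r = 0.76 in the first and 0.32 in the second batch and 0.38 without the 2 farthest mice. For *Htr1a* the interneuron list gave r = 0.50 (adjusted permutation p = 0.0437) and rho = 0.41 (adjusted permutation p = 0.101), and r was 0.04 and 0.79 within the batches. *Htr3a* did not pass with the interneuron list (r = -0.24, adjusted permutation p = 0.375), with -0.54 and -0.02 in the batches. Its r there was -0.70 with the first principal component of the markers in place of their mean.

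The remaining 8 relations past the threshold had r between -0.56 and 0.51. With the thalamus and habenula list, r was -0.54 and rho -0.48 for *Htr1b*, 0.49 and 0.56 for *Htr2c*, and 0.50 and 0.40 for *Htr7*, for which r was 0.02 with the first principal component of the markers in place of their mean. With the microglia list they were 0.51 and 0.43 for *Htr1b* and -0.55 and -0.58 for *Htr2c*, again opposite in sign. For *Htr1b* this r was 0.20 in the first and 0.63 in the second batch. *Htr2a* had r = 0.51 and rho = 0.54 with the neuron list and -0.53 and -0.57 with the hippocampus list, where r turned to 0.14 with the first principal component. *Htr3a* had -0.56 and -0.51 with the central amygdala list. By rho, the relations of *Htr1b* with both of its lists here and that of *Htr7* did not pass (adjusted permutation p of 0.0628, 0.0934 and 0.113).

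**Figure D5:**
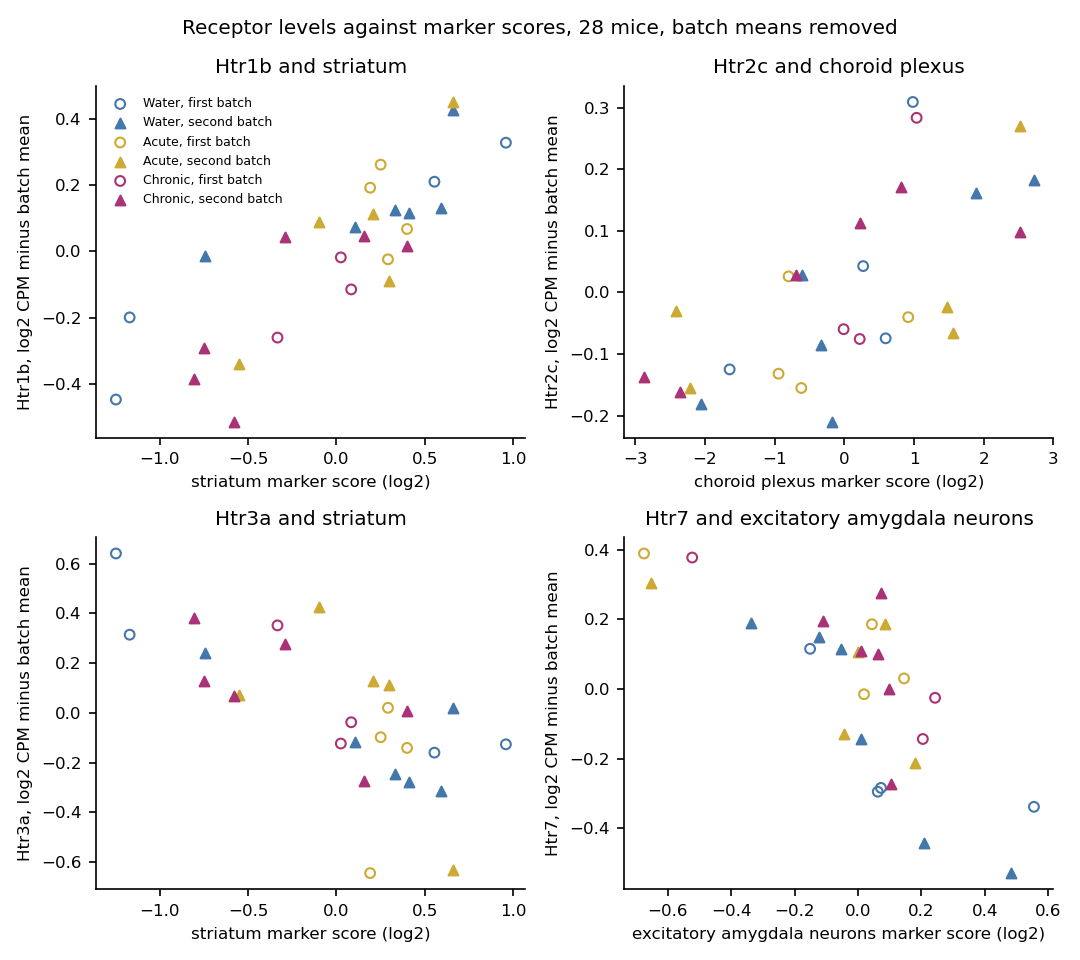
Levels of *Htr1b*, *Htr2c*, *Htr3a* and *Htr7* against the score of a marker list in 28 mice, both on the log2 scale with batch means removed. Colours are drinking groups, and open and filled symbols are the first and second batch. *Htr1b* rises with the striatum score (r = 0.83) and *Htr7* falls with the excitatory neuron score (r = -0.76), with mice of all 3 groups along each trend.

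The receptors were also related among themselves. Of 28 pairs of receptors, 4 had an adjusted permutation p under 0.05. The share of all gene pairs with such a relation was not computed, so this count does not set the receptors apart from other genes. *Htr2c* and *Htr3a* varied together (r = 0.69, rho = 0.70, adjusted permutation p = 0.00308, 0.77 and 0.62 in the batches and 0.58 without the 2 farthest mice). *Htr1b* varied against both of them, with r = -0.63 and rho = -0.65 for *Htr2c* and r = -0.63 and rho = -0.66 for *Htr3a* (adjusted permutation p = 0.00411 for each). The fourth pair was *Htr1b* and *Htr1f* (r = 0.50, adjusted permutation p = 0.0482), and by Spearman's rho (0.48) its adjusted p was 0.0883.

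The upstream sequences of *Htr1b* and *Htr2c* are shown because these 2 receptors varied in opposite directions across mice. *Htr3a* also varied against *Htr1b*, but no window was found for it. A link between the sequences and the levels was not tested. The sequences are the 250 bases before the RefSeq start of each gene (GRCm38.p6), chr9:81633833-81634082 on the minus strand for *Htr1b* and chrX:146962263-146962512 on the plus strand for *Htr2c*. Capitals mark every match, on either strand, to the letters of the motifs searched. These were the TATA box with the letters TATAAA, the GC box with GGGCGG, and the CCAAT box, which is named by its letters. They also included the cyclic AMP response element with the letters TGACGTCA, the AP-1 site, searched as TGANTCA, and the E-box, searched as CACGTG.
Htr1b: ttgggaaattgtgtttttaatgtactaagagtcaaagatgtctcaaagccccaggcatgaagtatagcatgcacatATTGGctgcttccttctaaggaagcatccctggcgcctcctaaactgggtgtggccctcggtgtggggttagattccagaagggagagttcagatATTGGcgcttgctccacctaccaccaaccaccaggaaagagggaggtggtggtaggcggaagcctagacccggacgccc
Htr2c: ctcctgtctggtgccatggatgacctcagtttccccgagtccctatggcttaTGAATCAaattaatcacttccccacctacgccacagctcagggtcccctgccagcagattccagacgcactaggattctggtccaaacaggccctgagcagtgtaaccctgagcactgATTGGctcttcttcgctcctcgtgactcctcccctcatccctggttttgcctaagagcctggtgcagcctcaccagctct

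*Htr1b* held 2 matches to CCAAT, and *Htr2c* held 1 match to CCAAT and 1 to the AP-1 letters. Among 32851 promoter windows of this length, 33.8% held CCAAT and 6.75% held the AP-1 letters. Neither window held the TATA box, the GC box, the cyclic AMP response element or the E-box, which occurred in 12.4%, 32.7%, 1.55% and 6.02% of windows. The GC content was 52.4% for *Htr1b* and 55.6% for *Htr2c*, beside a median of 52.4% over all windows. RefSeq windows were found for 7 of the 9 receptors, and that of *Htr7* stood apart with 82.0% GC, higher than in 99.3% of windows.

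Over the same mice the genes most like each receptor were named by Pearson's r among the 11722 genes that averaged 100 or more counts. They were *Rps6ka5*, *Pdzd2* and *Slmap* for *Htr1b* (r from 0.86 to 0.89), *Ntsr1*, *Dscam* and *Mroh1* for *Htr1a* (0.75 to 0.81), and *Plcb1*, *Dlg1* and *Prkcb* for *Htr1f* (0.72 to 0.84). Those of *Htr5a* were *Cadps2*, *Gnaz* and *Ap3d1* (0.73 to 0.74). For the Htr2 family they were *Hs3st4*, *Nxph3* and *Robo2* with *Htr2a* (0.83 to 0.84) and *Tbc1d9*, *Stxbp6* and *Palmd* with *Htr2c* (0.80 to 0.86). *Htr3a* was most like *Car10*, *Ptpn3* and *Mas1* (0.82 to 0.84) and *Htr7* most like *Nova1*, *Tmem130* and *Ece2* (0.84 to 0.86). In the 17 mice of the second batch *Pde7b*, *Dpy19l3* and *Id4* were most like *Htr4* (0.85 to 0.87 among 11820 genes).

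Marker scores were also compared between the drinking groups, since they moved with the receptors. In 36 exact permutation tests none passed the threshold after adjustment. The striatum score was 0.39 lower in Chronic than in Acute mice (difference -0.39, exact permutation p = 0.0475, adjusted p = 0.797) and its difference between Chronic and Water mice was -0.28 (exact p = 0.364). The central amygdala score of Acute mice was 0.27 above that of Water mice (exact permutation p = 0.0149, adjusted p = 0.538), and the excitatory neuron score differed by -0.17 there (exact p = 0.248).

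With the striatum score as a covariate, the log2 difference of *Htr1b* was -0.15 ± 0.06 between Chronic and Water mice and -0.11 ± 0.06 between Chronic and Acute mice, where it had been -0.25 in both. With the excitatory neuron score as a covariate, the difference of *Htr7* was 0.13 ± 0.07 in Acute and 0.18 ± 0.07 in Chronic mice, where it had been 0.23 and 0.21. The value of *Htr1a* in Chronic mice was 0.24 with the striatum score and 0.25 with the excitatory neuron score, close to its value without them. No receptor passed the adjusted threshold in these fits either.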

How the data were processed

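RNA-seq of 28 amygdala samples was analysed. The authors quantified paired-end reads with Salmon 0.14.1 after FastQC 0.11.8, per the labels, against GRCm38, and summarized them by gene. They deposited estimated counts as whole numbers, with no adjustment for batch and with the batches in separate tables. Gene identifiers joined these tables, and symbols and exon lengths came from GENCODE M21. Groups and batches were read from the labels, whose numbers name separate mice. None of the 55 pairs of libraries within a group and batch looked duplicated.

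Genes that averaged 10 or more counts were tested with edgeR 4.0.16 (R 4.3.3), by the quasi-likelihood test with TMM normalization, batch as a covariate and all 3 groups in the fit, with Benjamini-Hochberg adjustment over all genes and a threshold of 0.05. The study's own route, ComBat-seq (sva 3.50.0) followed by DESeq2 1.42.0, was an alternative, as were limma-voom (limma 3.58.1), other normalizations and filters, each batch, a replicate block and leaving out each mouse. Single receptors were also tested by exact permutation within batches on log2 CPM (prior count 2). Relations used Pearson's r and Spearman's rho with 100000 permutations within batches, adjusted over 96 relations or 28 pairs. Precision was limited by total counts (counting error) and by differences between mice. The scripts were tested on simulated data.

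The receptors, gene lists and marker lists were chosen with earlier results of these data known. The rule named the receptors, genes of serotonin synthesis and transport, the 2 genes with the smallest p of the effector and partner lists in each comparison, the 3 genes most like each receptor, and defining markers.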

Additional observations from a re-analysis of the deposited data

Results flagged for a closer look

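In the 27 sets formed by 9 receptors and 3 groups, 2 mice stood apart from the rest of their group by Dixon's criterion on log2 CPM with batch means removed, which chance alone passes in about 1 of 20 groups. Acute mouse 5 of the second batch was at 0.27 for *Htr2c*, with the next Acute mouse at 0.03 (gap of 0.573 of the range, critical value 0.493). Chronic mouse 1 of the second batch was at -0.24 for *Htr5a*, with the next at -0.02 (gap of 0.565 of the range, critical value 0.493).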

How the results depend on the processing

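The number of receptors past the adjusted threshold was 0 in each of the 42 alternatives for every pairwise comparison, and the number of pathway genes was 0 in each of 9. The lowest adjusted p of a receptor in any alternative was 0.152 (edgeR), for *Htr1b* between Chronic and Water mice without Water mouse 42 of the first batch. Both DESeq2 routes left 4 of the 8 receptors without an adjusted p between Chronic and Water mice, as did DESeq2 with batch between Acute and Water mice, and these 4 were not counted as lost or called there. The directions of *Htr1a*, *Htr1b*, *Htr1f*, *Htr2a*, *Htr5a* and *Htr7* between Chronic and Water mice held in 14 fits with another method, scaling, filter, covariate or batch and in 28 fits without a mouse. These fits reuse the same mice, so their agreement is not a replication. Only fits of the first batch and of the second batch share no mice with each other.

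The share of *Htr2c* was 52.5% with the longest transcript and 56.1% without a length, and 35.7% to 37.6% without a Water mouse. The number of marker relations past the threshold was 3 in the first batch, 11 in the second and 8 without the 2 mice farthest from the median score, where fewer mice were tested, and 18 and 24 with Spearman's rho and with the first principal component of the markers, under which *Htr2a* with the hippocampus list turned from -0.53 to 0.14.

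For *Htr1b*, *Htr1f*, *Htr2a*, *Htr2c*, *Htr3a*, *Htr5a* and *Htr7*, signs changed in differences that lay between -0.11 and 0.08 over all mice. The comparison gene *Htr1d* lay outside this range, with a log2 difference of -0.18 for Chronic against Water mice over both batches. In the first batch alone its mean was higher in Chronic (7.07 ± 0.97 CPM, SD) than in Water mice (6.38 ± 3.09 CPM). For *Htr1b* in Acute against Water mice the log2 difference became -0.0048 with ComBat-seq and DESeq2, -0.081 in the second batch (-0.077 with a replicate block), -0.033, -0.041 and -0.0040 with the striatum, excitatory neuron and choroid plexus scores, and -0.051 to 0.055 without a mouse. For *Htr1f* it became -0.0077 with ComBat-seq and DESeq2, -0.021 in the second batch, -0.013 and -0.0023 with the striatum and choroid plexus scores, and -0.032 to 0.073 without a mouse. *Htr3a* had 0.17 in the second batch (0.11 with the block) and -0.15 to 0.014 without a mouse in Acute mice, and -0.13 in the first batch and -0.0084 with the striatum score in Chronic mice. *Htr2c* had 0.017 in the second batch in Acute mice, -0.029 with the striatum score and -0.018 to 0.059 without a mouse in Chronic mice, and -0.017 with that score between Chronic and Acute mice. Between Chronic and Acute mice *Htr2a* was at 0.0042 in the first batch, *Htr5a* at -0.021 with the striatum score, and *Htr7* at 0.014 in the second batch, 0.018 with the block, 0.047 with the excitatory neuron score and -0.076 to 0.014 without a mouse. *Htr5a* in Acute mice was at -0.020 to 0.046 without a mouse. The cause of these changes was not tested. The fits with marker scores, those of *Htr4*, the batch differences, Spearman's rho in place of r and the removal of group means, and the share of all genes related to the scores, were chosen after seeing the data.

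Replicate numbers of the second batch named mice only: deviations of mice with the same number had a median correlation of -0.069 (from -0.54 to 0.42), and 0 of 17 mice matched best with their own number. The replicate block changed no call. No limit of detection was computed, and the intervals beside each receptor give the precision that the mice tested allowed.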
